A study of Mus musculus with 16 samples.

Results

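The genes Rbp4, Lrat, Retsat, Rdh16, Rdh10, Dhrs3, Aldh1a1 and Aldh1a7, which carry, store and convert vitamin A, were followed in mouse liver. They were taken from the count files by their Ensembl identifiers, as 8 of 55416 genes listed, and all 8 had enough counts to be among the 14770 genes tested. Vitamin A reaches the body as retinyl esters and carotenoids. The liver stores retinol as retinyl ester, chiefly in hepatic stellate cells, and hepatocytes release it to the blood bound to a carrier protein. Inside cells retinol is oxidised reversibly to retinal and then irreversibly to retinoic acid, the ligand of the retinoic acid receptors, which pair with the same RXR partners as the fatty acid sensor PPARα.

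All mice were wild-type C57BL/6J mice, 8 weeks old, that had received an adenovirus through the tail vein, and there was no group without virus. In the Ad-FAT10 groups the vector carried FAT10, the ubiquitin-like modifier encoded by Ubd, and in the Ad-CTRL groups it was a control vector. After 4 days the mice received by gavage either 1 mpk pemafibrate (Pema), a selective PPARα agonist, or its vehicle CMC, at 18 h and again at 5 h before liver collection, and they were fasted for the last 5 h. The 4 groups, Ad-FAT10 Pema, Ad-FAT10 CMC, Ad-CTRL Pema and Ad-CTRL CMC, held 4 poly(A) RNA libraries of liver each. The labels number the libraries of a group but do not say that each came from a separate mouse. The labels name neither the promoter of the vector nor the cells it reached, and vector load and the response to the vector cannot be told apart from FAT10 itself in any comparison of the adenoviruses.

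Library totals ran from 18663498 to 28898229 counts. Ubd, the gene the vector carried, stood at 459.8 ± 64.3 CPM (counts scaled to library size with TMM factors) in Ad-FAT10 Pema livers and 236.6 ± 115.7 in Ad-FAT10 CMC livers. In Ad-CTRL Pema livers it stood at 27.5 ± 14.4 CPM and in Ad-CTRL CMC livers at 11.2 ± 3.05 (SD, n = 4 each). The counts do not separate vector transcripts from those of the mouse gene. Markers of hepatocytes and of quiescent stellate cells were present in every library. Mitochondrially encoded genes held 3.15 to 5.96% of counts in Ad-FAT10 Pema libraries, 4.59 to 5.61% in Ad-FAT10 CMC, 5.46 to 7.21% in Ad-CTRL Pema and 5.82 to 8.76% in Ad-CTRL CMC libraries.

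Promoter sequences were taken from the RefSeq table for GRCm38.p6, in which 7 of the 8 genes, all but Rdh10, had an entry of 250 bases before to 50 bases after a start site. The bases before the start are shown for Retsat and Rdh16, the pair with the largest pemafibrate responses among the 8, and for the close paralogues Aldh1a1 and Aldh1a7. Each is written 5′ to 3′ on the strand of its gene. PPARα with RXR is known to bind direct repeats of AGGTCA with 1 base between the copies (DR1), and retinoic acid receptors with RXR repeats with 5 bases between (DR5), any base being allowed there. Both strands of each 300-base window were searched. Neither repeat was found whole in a window of the 7 genes, and whole copies were rare among all 32851 promoters of the table, with DR1 in 0.0396% and DR5 in 0.00913%. In the Retsat promoter, chr6:72598352-72598601 on the plus strand, capitals mark the closest match to DR5. It holds 10 of the 12 fixed bases, and 2.79% of promoters held a match at least as close. The closest Retsat match to DR1 holds 8 of the 12, and 79.8% of promoters held one at least as close. For Retsat and for Rdh16, the motif marked is the one searched whose match was rarest among promoters. Binding was not tested.
Retsat: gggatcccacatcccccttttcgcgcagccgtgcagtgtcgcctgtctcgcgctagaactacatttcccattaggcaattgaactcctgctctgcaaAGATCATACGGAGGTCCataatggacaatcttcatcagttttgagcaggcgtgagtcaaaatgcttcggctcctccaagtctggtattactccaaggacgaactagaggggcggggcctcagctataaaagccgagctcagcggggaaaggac
In the Rdh16 promoter, chr10:127800903-127801152 on the plus strand, capitals mark a whole copy of the single motif AGGTCA, read on the opposite strand, its first printed base 238 bases before the start. Of all promoters 16.3% hold such a copy. The closest Rdh16 matches hold 9 of 12 fixed bases of DR1 and 8 of 12 of DR5, and 24.6 and 77.6% of promoters held matches at least as close.
Rdh16: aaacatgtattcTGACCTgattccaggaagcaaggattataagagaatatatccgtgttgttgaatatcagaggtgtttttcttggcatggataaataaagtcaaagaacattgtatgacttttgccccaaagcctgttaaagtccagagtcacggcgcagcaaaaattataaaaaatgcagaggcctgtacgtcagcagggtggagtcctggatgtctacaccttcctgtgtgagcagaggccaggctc
For Aldh1a1 (chr19:20601868-20601967, plus strand, the second of its RefSeq starts) and Aldh1a7 (chr19:20727557-20727656, minus strand), the 100 bases before the start were identical at 94 positions. Over the whole windows 224 of 282 aligned bases were identical (79.4%). With the window of the first Aldh1a1 start 171 of 262 were identical (65.3%). Capitals mark the bases that differ within the 100 printed.
Aldh1a1: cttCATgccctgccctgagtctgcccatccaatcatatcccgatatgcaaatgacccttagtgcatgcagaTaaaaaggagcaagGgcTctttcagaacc
Aldh1a7: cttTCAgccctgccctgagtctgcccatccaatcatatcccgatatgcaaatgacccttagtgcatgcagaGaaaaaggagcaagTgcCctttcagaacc
The coding sequences of these neighbours were also alike, with 1380 of 1501 aligned bases identical (91.9%), and that of Rdh16 shared 96.3% with Rdh9 and 91.8% with Rdh16f2. Their counts are uncertain to the extent that reads matching more than 1 copy were split, the rule for which is not given in the sources used here.

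Pemafibrate raised Retsat and Rdh16 most among the 8 genes, in livers with either vector, and Aldh1a1 and Aldh1a7 by smaller steps. Ad-FAT10 livers held less Rbp4, Retsat, Rdh16 and Dhrs3 RNA than Ad-CTRL livers, with the drug and without it, while Aldh1a1 and Aldh1a7 did not pass the test between the vectors. In edgeR's quasi-likelihood test, with p adjusted over all genes tested and a gene called below 0.05, 4 of the 8 rose and 0 fell with pemafibrate in Ad-FAT10 livers, where 25.4% of the tested genes were called, 12.9% higher and 12.5% lower. In Ad-CTRL livers 4 rose and 1, Rdh10, fell with pemafibrate, against 30.6% of tested genes called, 16.2% higher and 14.4% lower. Between vectors under pemafibrate 4 of the 8 fell and 0 rose in Ad-FAT10 livers, with 41.7% of tested genes called, 20.5% lower and 21.2% higher. Under CMC 6 fell and 0 rose, with 42.6% called, 20.2% lower and 22.5% higher. These shares were not tested against each other, and the counts say only how many of the 8 were called. The median log2 changes of the 8 were 0.49 and 0.47 for the drug in Ad-FAT10 and Ad-CTRL livers, and -0.52 and -0.66 for Ad-FAT10 under pemafibrate and CMC, against -0.01 to -0.02 over all tested genes.

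**Figure D1:**
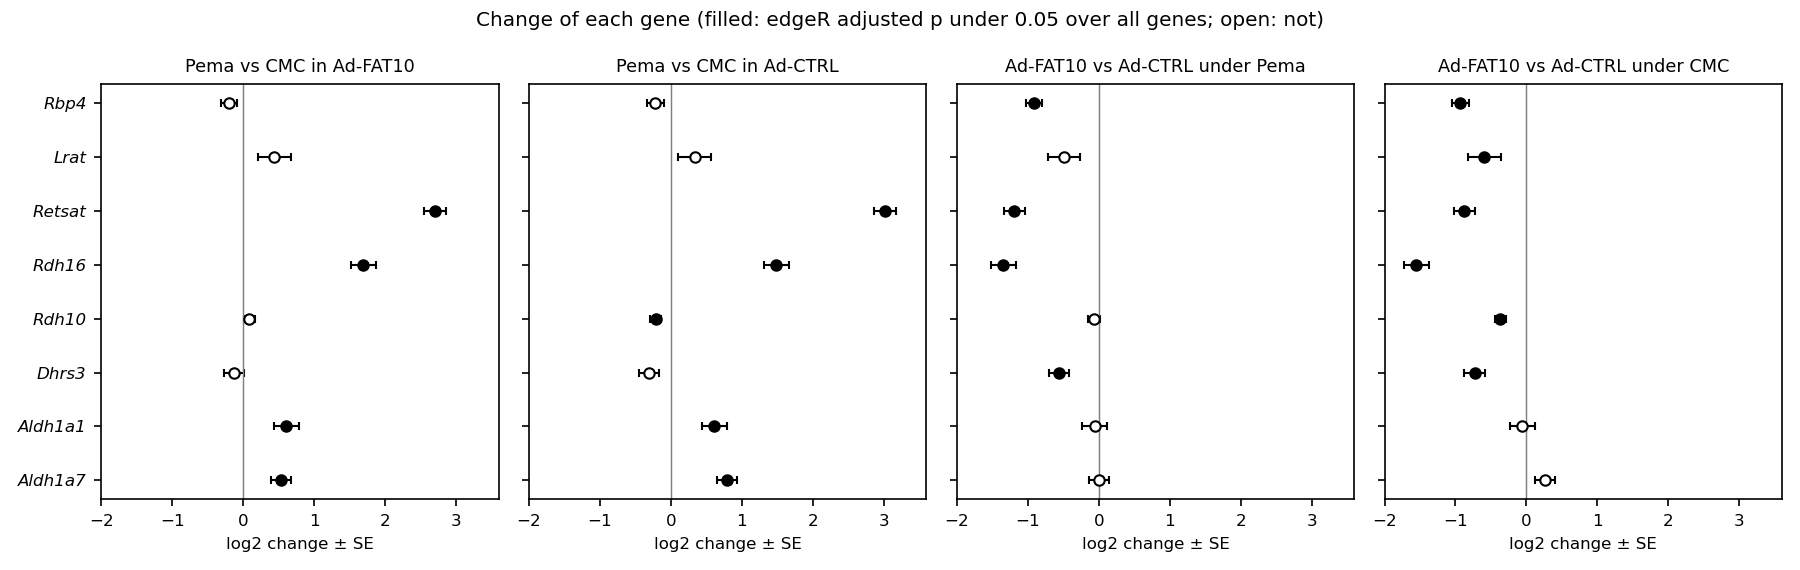
Log2 change ± SE of each gene (vertical) in the 4 comparisons (panels), filled where the edgeR adjusted p was under 0.05. Retsat and Rdh16 lie right of 0 in both drug panels, at 2.70 and 1.69 in Ad-FAT10 and 3.01 and 1.48 in Ad-CTRL livers, and left of 0 in both vector panels, where the signs of Rdh10 (under Pema) and Aldh1a1 turn if libraries are scaled by their totals alone.

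Whether the drug response differed between the vectors was tested as an interaction, the drug's log2 change in Ad-FAT10 livers minus that in Ad-CTRL livers. None of the 8 genes passed it by edgeR or by DESeq2, and 0.156% of tested genes did by edgeR, 0.0271% with a positive and 0.129% with a negative value. Only Rdh10, 1 of the 8, had an unadjusted p under 0.05 by edgeR. Its interaction was 0.30 ± 0.11 (SE, edgeR adjusted p = 0.322). For Retsat the interaction was -0.32 ± 0.21 (adjusted p = 0.62) and for Rdh16 it was 0.21 ± 0.25 (adjusted p = 0.812). A p above the threshold does not show that the responses were equal. Ubd itself differed with the drug, at 391.3 to 545.8 CPM in Ad-FAT10 Pema and 110.5 to 339.3 in Ad-FAT10 CMC livers. The drug comparison with Ad-FAT10 and the interaction were therefore not at a constant Ubd level, and its part in the values was not tested.

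Levels of different genes were compared as FPKM, the TMM-scaled CPM per kilobase of annotated exon. That length joins the exons of all annotated transcripts. It was 4937 bases for Aldh1a1 and 2066 for Aldh1a7, which both have 1503 coding bases. The order of genes given here, as of Retsat and Aldh1a1, can therefore depend on the length used. Rbp4 stood far above the others in every group, at 1034.1 ± 136.4 FPKM in Ad-FAT10 Pema, 1185.7 ± 107.1 in Ad-FAT10 CMC, 1943.7 ± 107.1 in Ad-CTRL Pema and 2263.8 ± 181 in Ad-CTRL CMC livers (SD, n = 4). Without the drug the next in order were Aldh1a1, Aldh1a7 and Retsat, at 252.2 ± 6.61, 153.6 ± 12 and 42.8 ± 9.63 FPKM in Ad-FAT10 CMC livers. With it Retsat reached 277.6 ± 6.72 FPKM in Ad-FAT10 Pema livers, between Aldh1a7 at 222.2 ± 41 and Aldh1a1 at 383.8 ± 111.1. In Ad-CTRL Pema livers Retsat, at 633.6 ± 90.8 FPKM, was above Aldh1a1, at 399.5 ± 20.9. Lrat was lowest in every group, at 2.27 to 4.31 FPKM over the group means. Rdh10, at 5.40 to 6.98, came next above it except in Ad-FAT10 CMC livers, where Rdh16 stood at 5.07 ± 1.24. Retsat and Rdh16 also varied most, with SDs of 1.59 and 1.15 log2 CPM over the 16 libraries, and Rdh10 varied least, with 0.16.

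**Figure D2:**
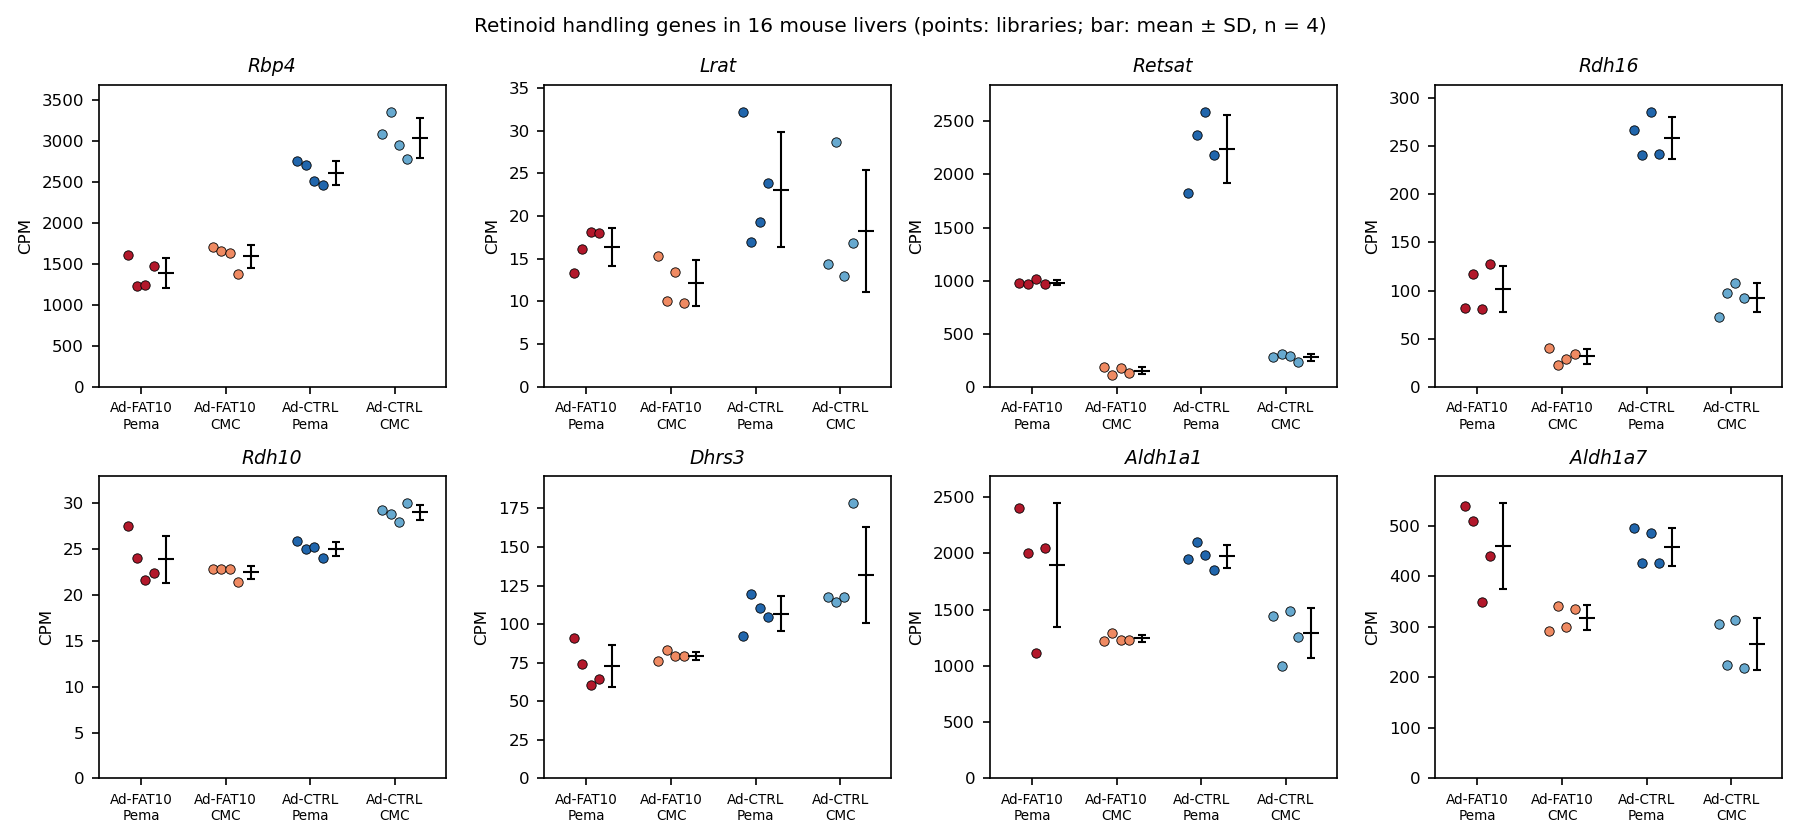
CPM of each gene in 16 liver libraries, 1 panel per gene with its own axis from 0, points for libraries and bars for the mean ± SD (n = 4) of each group. The 4 Retsat groups do not overlap, from 2241.2 CPM on average in Ad-CTRL Pema down to 151.3 in Ad-FAT10 CMC livers, and the Rbp4 points of both Ad-FAT10 groups lie below all Ad-CTRL points.

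Rbp4 (ENSMUSG00000024990), the plasma carrier that takes retinol from the liver to other tissues, was lower with Ad-FAT10 in every library. Its CPM were 1610.5, 1235.6, 1241.1 and 1468.1 in Ad-FAT10 Pema livers and 1702.3, 1658.6, 1627.1 and 1381.5 in Ad-FAT10 CMC livers. Ad-CTRL Pema livers had 2755.5, 2710.1, 2512.4 and 2463.7 CPM and Ad-CTRL CMC livers 3081.8, 3353.3, 2948.5 and 2777.5. The highest Ad-FAT10 library, at 1702.3 CPM, lay well under the lowest Ad-CTRL library, at 2463.7 CPM. Rbp4 fell in Ad-FAT10 livers by 0.91 ± 0.12 on the log2 scale under pemafibrate (0.532-fold, edgeR adjusted p = 1.76e-05) and by 0.93 ± 0.12 under CMC (0.524-fold, adjusted p = 1.19e-05). With pemafibrate the change was -0.20 ± 0.12 in Ad-FAT10 livers (adjusted p = 0.248), where the groups overlapped, and -0.22 ± 0.12 in Ad-CTRL livers (adjusted p = 0.175), where they did not. With library totals alone Rbp4 was called lower with the drug in Ad-CTRL livers (-0.30, adjusted p = 0.0404).

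Lrat (ENSMUSG00000028003), which joins retinol to a fatty acid for storage, had 246 to 622 counts per library, the fewest of the 8. Its CPM were 13.3, 16.2, 18.1 and 18.0 in Ad-FAT10 Pema livers and 15.3, 10.1, 13.4 and 9.79 in Ad-FAT10 CMC livers. Ad-CTRL Pema livers had 32.2, 17.0, 19.3 and 23.9 CPM and Ad-CTRL CMC livers 14.4, 28.7, 13.0 and 16.9. All 4 groups overlapped with their neighbours in level, and Ad-CTRL CMC replicate 2, at 28.7 CPM, was the highest of its group. Lrat fell with Ad-FAT10 under CMC by 0.59 ± 0.23 (edgeR adjusted p = 0.0483), a call that did not hold without Ad-CTRL CMC replicate 2 (-0.28, adjusted p = 0.284) and that 8 other omissions of 1 library also ended. That call was also lost with library totals alone (-0.31, adjusted p = 0.322), upper quartile scaling (adjusted p = 0.0501) and a fit of only the 2 groups (adjusted p = 0.06). Under pemafibrate the difference was -0.49 ± 0.23 (adjusted p = 0.0923). It was called without a filter on low counts (-0.46, adjusted p = 0.0396), without Ad-CTRL CMC replicate 2 (-0.49, adjusted p = 0.0388) and without Ad-CTRL Pema replicate 2 (-0.61, adjusted p = 0.05), and was -0.29 (adjusted p = 0.333) without Ad-CTRL Pema replicate 1. The drug changes were 0.44 ± 0.23 in Ad-FAT10 livers (adjusted p = 0.188) and 0.34 ± 0.23 in Ad-CTRL livers (adjusted p = 0.305), the second of which became 0.65 (adjusted p = 0.0234) without Ad-CTRL CMC replicate 2 and 0.14 (adjusted p = 0.709) without Ad-CTRL Pema replicate 1.

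Other genes of quiescent stellate cells, the cells in which Lrat is mainly known, were lower with Ad-FAT10 too. Of 16 markers, all measured and none at 0, 12 fell and 0 rose in Ad-FAT10 livers under pemafibrate, where 20.5% of all tested genes fell. The same counts held under CMC, where 20.2% of all tested genes fell. The medians of the 16 markers were -0.71 and -0.78. Their summed level was 276.1 to 351.7 CPM in Ad-FAT10 Pema and 272.8 to 368.2 in Ad-FAT10 CMC livers, against 470.7 to 698.9 in Ad-CTRL Pema and 534.8 to 613.5 CPM in Ad-CTRL CMC livers. Reln, a secreted glycoprotein of these cells, fell by 0.94 under pemafibrate and 0.69 under CMC (edgeR adjusted p = 2.91e-05 and 0.000442). The proteoglycan gene Dcn fell by 0.70 and 0.62 (adjusted p = 0.000267 and 0.000766). Ngfr, the low-affinity neurotrophin receptor, fell by 0.71 under pemafibrate (adjusted p = 0.00595) and had a change of -0.46 under CMC (adjusted p = 0.0565), while the desmin gene Des passed neither test (-0.06 and -0.47). With pemafibrate 0 of the 16 changed in Ad-FAT10 livers and 1 fell in Ad-CTRL livers. In bulk liver RNA, fewer cells of a type and less RNA per cell cannot be told apart, and the part of stellate cells in the Lrat values was not tested.

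Lrat was also set against these cells within each library, as its log2 CPM minus the mean log2 CPM of the 16 stellate markers. The difference was 0.73 ± 0.16 in Ad-FAT10 Pema and 0.29 ± 0.11 in Ad-FAT10 CMC livers, and 0.46 ± 0.13 in Ad-CTRL Pema and -0.02 ± 0.46 in Ad-CTRL CMC livers (SD, n = 4). The drug difference was 0.44 in Ad-FAT10 livers, with all 4 Pema libraries above all CMC libraries (exact two-sided permutation p = 0.0286, the smallest that 70 assignments give, 0.0686 adjusted over 12 such tests). In Ad-CTRL livers it was 0.48 (exact permutation p = 0.114, adjusted p = 0.196). Between vectors it was 0.27 under pemafibrate and 0.31 under CMC (exact permutation p = 0.0571 and 0.229, adjusted p = 0.114 and 0.305). No difference passed after adjustment with all libraries. A difference without overlap has p = 0.0286 in this exact permutation test. Its adjusted p depends on how many of the 12 tests reach that value. Full separation alone therefore cannot pass, and a missing call does not show that groups were equal. Without Ad-CTRL CMC replicate 2, which stood at 0.63 among values of -0.46 to -0.09, the Ad-CTRL drug difference was 0.69 and the vector difference under CMC 0.52 (exact permutation, adjusted p = 0.049 each). Without Ad-CTRL CMC replicate 3 these were 0.33 and 0.16.

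**Figure D3:**
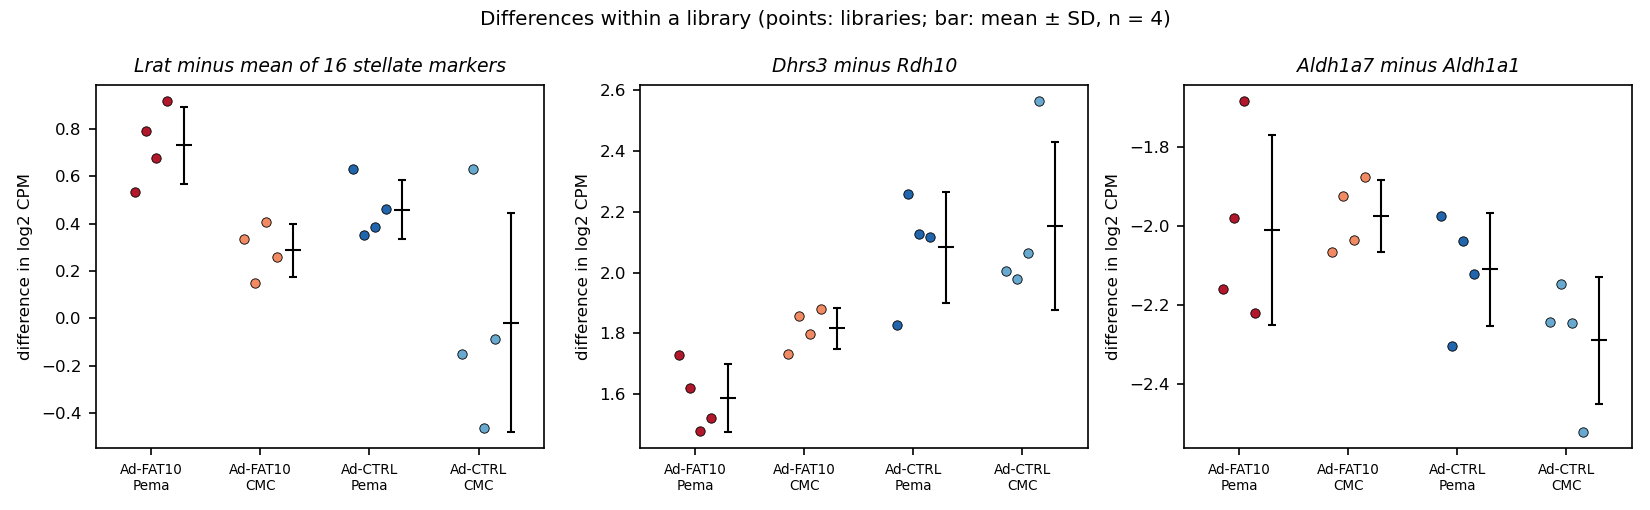
Differences in log2 CPM between genes of 1 library, for Lrat and the mean of 16 stellate markers, Dhrs3 and Rdh10, and Aldh1a7 and Aldh1a1 (panels), with points for libraries and bars for the mean ± SD (n = 4). The axes do not start at 0. Dhrs3 minus Rdh10 was lower in both Ad-FAT10 groups, at 1.59 and 1.82 on average, than in the Ad-CTRL groups at 2.08 and 2.15. With all libraries no difference passed the adjusted test, which full separation alone cannot pass at this group size.

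Retsat (ENSMUSG00000056666) encodes the enzyme that saturates retinol to dihydroretinol, a side branch from the path to retinoic acid. Its CPM were 975.6, 967.9, 1016.9 and 966.6 in Ad-FAT10 Pema livers and 186.6, 114.1, 172.8 and 131.6 in Ad-FAT10 CMC livers. Ad-CTRL Pema livers had 1829.7, 2366.9, 2588.1 and 2179.9 CPM and Ad-CTRL CMC livers 276.3, 312.3, 289.4 and 232.0. No 2 groups overlapped, and all Ad-FAT10 Pema libraries, at 966.6 to 1016.9 CPM, lay above every CMC library and below every Ad-CTRL Pema library. With pemafibrate Retsat rose by 2.70 ± 0.16 in Ad-FAT10 livers (6.49-fold, edgeR adjusted p = 1.26e-09) and by 3.01 ± 0.16 in Ad-CTRL livers (8.08-fold, adjusted p = 2.14e-10). By p it ranked 16 and 18 of the 14770 genes in these comparisons. With Ad-FAT10 it fell by 1.19 ± 0.15 under pemafibrate (0.438-fold, adjusted p = 1.32e-05) and by 0.88 ± 0.15 under CMC (0.545-fold, adjusted p = 0.000186). All 4 calls were kept, in direction and significance, under every scaling, filter, tool and omitted library that was tried.

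Rdh16 (ENSMUSG00000069456), a short-chain dehydrogenase that oxidises retinol and hydroxysteroids, followed the same order of groups with 1 overlap. It had 82.1, 116.7, 81.2 and 127.5 CPM in Ad-FAT10 Pema livers and 40.8, 22.5, 29.1 and 33.9 in Ad-FAT10 CMC livers. The values were 267.1, 240.6, 285.5 and 241.5 CPM in Ad-CTRL Pema livers and 72.2, 97.6, 108.1 and 91.9 in Ad-CTRL CMC livers. Ad-FAT10 Pema livers, at 101.9 ± 23.8 CPM, overlapped Ad-CTRL CMC livers, at 92.4 ± 15.1, and the other neighbours in level did not overlap. Rdh16 rose with pemafibrate by 1.69 ± 0.18 in Ad-FAT10 livers (3.23-fold, edgeR adjusted p = 1.7e-06) and by 1.48 ± 0.18 in Ad-CTRL livers (2.80-fold, adjusted p = 4.21e-06). With Ad-FAT10 it fell by 1.34 ± 0.18 under pemafibrate (0.394-fold, adjusted p = 1.8e-05) and by 1.55 ± 0.18 under CMC (0.341-fold, adjusted p = 4.81e-06). These calls also held under all alternatives.

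Among relatives of Rdh16, a pair fell with the drug. Rdh16f2, a near copy, had 23.7, 20.4, 30.8 and 30.0 CPM in Ad-FAT10 Pema and 54.9, 78.8, 43.9 and 47.4 in Ad-FAT10 CMC livers. In Ad-CTRL Pema livers it had 49.8, 75.7, 41.1 and 53.8 CPM, and in Ad-CTRL CMC livers 98.0, 138.6, 157.1 and 151.9. It fell with the drug, where Rdh16 rose, by 1.10 ± 0.21 in Ad-FAT10 and 1.31 ± 0.21 in Ad-CTRL livers (edgeR adjusted p = 0.000724 and 9.43e-05), and with Ad-FAT10 by 1.07 ± 0.21 under pemafibrate and 1.28 ± 0.21 under CMC (adjusted p = 0.000591 and 0.000113). Rdh5, known as the 11-cis-retinol dehydrogenase of the eye, fell with pemafibrate by 1.23 ± 0.17 and 1.43 ± 0.18 in Ad-FAT10 and Ad-CTRL livers (adjusted p = 4.78e-05 and 6.5e-06). Rdh7, at 714.5 ± 92.7 CPM in Ad-FAT10 Pema and 1298.4 ± 34.3 CPM in Ad-CTRL Pema livers, passed neither drug test (-0.31 and -0.29) and fell with Ad-FAT10 by 0.86 ± 0.12 and 0.84 ± 0.12 under pemafibrate and CMC (adjusted p = 2.96e-05 and 3.17e-05). Rdh9, whose coding sequence is closest to that of Rdh16, stood at 4.09 to 9.76 CPM over all libraries and passed none of the 4 tests. Rdh1 had too few counts to be tested.

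**Figure D4:**
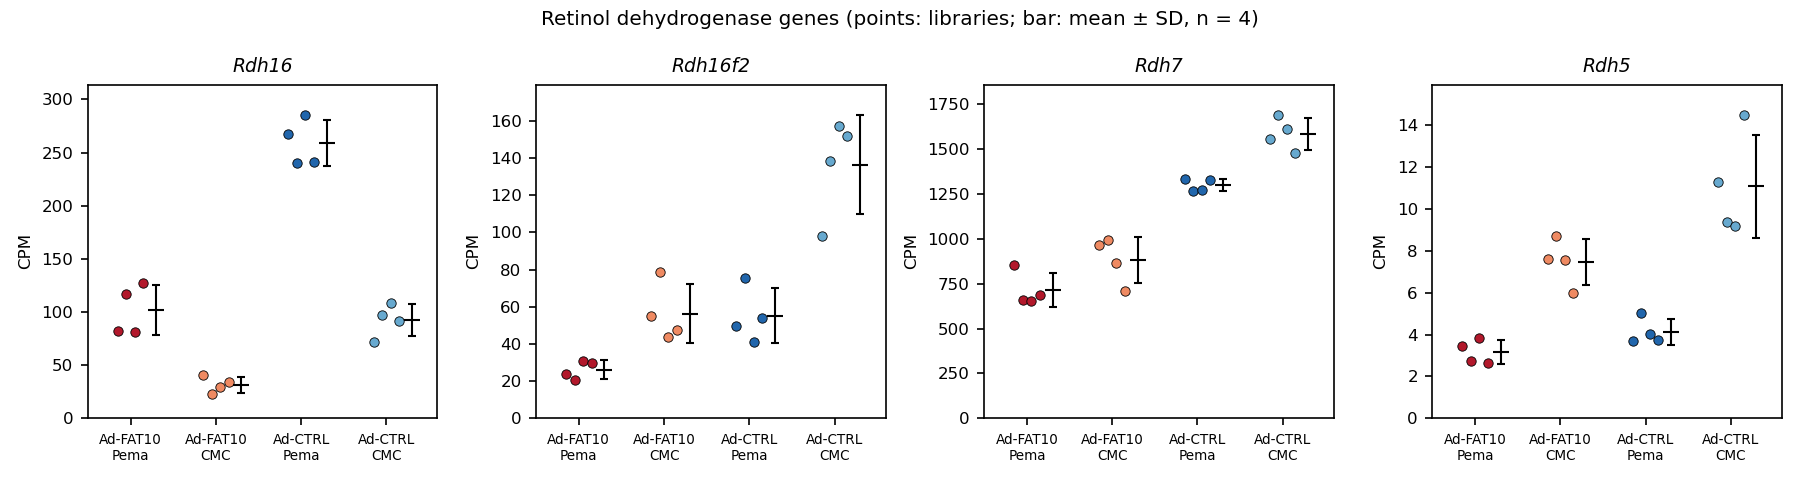
CPM of Rdh16, Rdh16f2, Rdh7 and Rdh5 in 16 liver libraries (points), with the mean ± SD of each group (n = 4) and axes from 0. Rdh16 is higher in Pema than in CMC livers with either vector, while Rdh16f2 and Rdh5 are lower in Pema livers.

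Rdh10 (ENSMUSG00000025921), the membrane-bound retinol dehydrogenase that makes retinal for retinoic acid synthesis, changed little. Ad-FAT10 Pema livers had 27.5, 24.0, 21.7 and 22.4 CPM and Ad-FAT10 CMC livers 22.9, 22.8, 22.8 and 21.4. In Ad-CTRL Pema livers it stood at 25.9, 25.0, 25.2 and 24.0 CPM, and in Ad-CTRL CMC livers at 29.3, 28.8, 28.0 and 30.0. Only the Ad-CTRL CMC group stood clear of the other 3, above all their libraries. Rdh10 fell with Ad-FAT10 under CMC by 0.37 ± 0.08 (edgeR adjusted p = 0.0011), a call lost when libraries were scaled by their totals alone (-0.08, adjusted p = 0.418). Under pemafibrate the difference was -0.07 ± 0.08 (adjusted p = 0.519), and with library totals alone it turned to 0.29 (adjusted p = 0.00389). With the drug Rdh10 fell by 0.22 ± 0.08 in Ad-CTRL livers (adjusted p = 0.0442), a call lost in 10 of 16 omissions of 1 library (highest adjusted p = 0.118) and without a filter on low counts (adjusted p = 0.199). In Ad-FAT10 livers the drug change was 0.09 ± 0.08 (adjusted p = 0.453).

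Dhrs3 (ENSMUSG00000066026) encodes a retinal reductase, which turns retinal back to retinol and is known to form a complex with RDH10. Its CPM were 91.3, 74.0, 60.8 and 64.5 in Ad-FAT10 Pema livers and 76.1, 83.0, 79.4 and 79.0 in Ad-FAT10 CMC livers. The values were 92.3, 119.6, 110.3 and 104.6 CPM in Ad-CTRL Pema livers and 117.8, 114.0, 117.4 and 178.2 in Ad-CTRL CMC livers. Every Ad-FAT10 library, the highest at 91.3 CPM, lay below every Ad-CTRL library, the lowest at 92.3 CPM. Dhrs3 fell with Ad-FAT10 by 0.56 ± 0.14 under pemafibrate (0.680-fold, edgeR adjusted p = 0.00463) and by 0.73 ± 0.14 under CMC (0.602-fold, adjusted p = 0.000598). With library totals alone the first became -0.19 (adjusted p = 0.219). The drug changes were -0.13 ± 0.14 in Ad-FAT10 livers (adjusted p = 0.568) and -0.31 ± 0.14 in Ad-CTRL livers (adjusted p = 0.118), the second of which was called with upper quartile scaling (-0.38, adjusted p = 0.0418) and library totals (-0.39, adjusted p = 0.0286). Without Ad-CTRL CMC replicate 4, the highest library at 178.2 CPM, it was -0.13 (adjusted p = 0.503).

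Dhrs3 minus Rdh10 within a library, set as reduction against oxidation, was 1.59 ± 0.11 log2 in Ad-FAT10 Pema livers and 2.08 ± 0.18 in Ad-CTRL Pema livers (SD, n = 4). The difference was -0.50, with no overlap (exact two-sided permutation p = 0.0286, adjusted p = 0.0686). Under CMC it was 1.82 ± 0.07 in Ad-FAT10 and 2.15 ± 0.28 in Ad-CTRL livers, a difference of -0.34 (exact permutation p = 0.0286, adjusted p = 0.0686). Without Ad-CTRL CMC replicate 2 it was -0.40 (exact permutation, adjusted p = 0.049, which also depends on the other tests adjusted with it), and without Ad-CTRL CMC replicate 4, which stood highest at 2.57, it was -0.20 (adjusted p = 0.0686). The drug differences were -0.23 in Ad-FAT10 livers (exact permutation p = 0.0286, adjusted p = 0.0686) and -0.07 in Ad-CTRL livers (exact permutation p = 0.743, adjusted p = 0.81).

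Aldh1a1 (ENSMUSG00000053279), a cytosolic aldehyde dehydrogenase that oxidises retinal to retinoic acid, rose with pemafibrate and passed neither test between vectors. It had 2406.2, 2005.0, 1117.3 and 2051.6 CPM in Ad-FAT10 Pema livers and 1223.6, 1293.6, 1231.2 and 1231.3 in Ad-FAT10 CMC livers. Ad-CTRL Pema livers had 1947.3, 2101.2, 1989.4 and 1852.2 CPM and Ad-CTRL CMC livers 1444.4, 994.2, 1485.4 and 1254.0. In Ad-FAT10 Pema livers replicate 3, at 1117.3 CPM, lay below every CMC library of that vector and the other 3 above them. Aldh1a1 rose with the drug by 0.61 ± 0.18 in Ad-FAT10 livers (1.52-fold, edgeR adjusted p = 0.0168) and by 0.61 ± 0.18 in Ad-CTRL livers (1.52-fold, adjusted p = 0.0137). The first call was lost without Ad-FAT10 Pema replicate 1 (0.47, adjusted p = 0.0593) and the second without Ad-CTRL CMC replicate 2 (0.50, adjusted p = 0.0508). The differences between vectors were -0.06 ± 0.18 under either treatment (adjusted p = 0.816 each), and with library totals alone they turned to 0.30 and 0.24 (adjusted p = 0.135 and 0.246). Markers of pericentral hepatocytes, measured beside it, fell with Ad-FAT10 in 10 of 12 cases under pemafibrate and in 8 of 12 under CMC. Of all tested genes 20.5 and 20.2% fell. The part of these markers in the Aldh1a1 values was not tested.

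Aldh1a7 (ENSMUSG00000024747), the paralogue of Aldh1a1 found in rodents, had 538.9, 508.4, 347.9 and 440.7 CPM in Ad-FAT10 Pema livers and 292.2, 341.2, 300.3 and 335.8 in Ad-FAT10 CMC livers. In Ad-CTRL Pema livers it had 495.8, 425.7, 484.8 and 425.5 CPM, and in Ad-CTRL CMC livers 305.3, 224.4, 313.5 and 218.5. All Pema libraries lay above all CMC libraries of the same vector. Aldh1a7 rose with the drug by 0.53 ± 0.14 in Ad-FAT10 livers (1.45-fold, edgeR adjusted p = 0.00979) and by 0.79 ± 0.14 in Ad-CTRL livers (1.73-fold, adjusted p = 0.000368). Between vectors the difference was 0.00 ± 0.14 under pemafibrate (adjusted p = 0.989) and 0.26 ± 0.14 under CMC (adjusted p = 0.152). Library totals alone made these 0.36 and 0.55, both called (adjusted p = 0.0377 and 0.00328).

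Within a library Aldh1a7 minus Aldh1a1 was -2.01 ± 0.24 log2 CPM in Ad-FAT10 Pema and -1.97 ± 0.09 in Ad-FAT10 CMC livers. It was -2.11 ± 0.14 in Ad-CTRL Pema and -2.29 ± 0.16 in Ad-CTRL CMC livers (SD, n = 4). With all libraries none of the 4 differences between groups passed the adjusted test, which full separation alone cannot pass at this group size. The largest, 0.31 for Ad-FAT10 against Ad-CTRL under CMC, had no overlap (exact two-sided permutation p = 0.0286, adjusted p = 0.0686). Without Ad-CTRL CMC replicate 2 it was 0.36 (exact permutation, adjusted p = 0.049, which also depends on the other tests adjusted with it), and without Ad-CTRL CMC replicate 4 it was 0.24 (adjusted p = 0.0686). These are CPM and not per length, so they compare groups and not the levels of the pair.

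In all, 3 of the 8 genes had no overlap between Pema and CMC libraries with Ad-FAT10 (25.4% of tested genes) and 6 with Ad-CTRL (30.6%). Between vectors 4 had none under pemafibrate (36.9%) and 5 under CMC (38.2%).

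The other genes of retinoid metabolism were taken as 9 lists of 85 genes, of which 69 had enough counts to be tested. With pemafibrate 16 rose and 14 fell in Ad-FAT10 livers and 17 rose and 17 fell in Ad-CTRL livers, 43.5 and 49.3% of those tested, against 25.4 and 30.6% of all tested genes. With Ad-FAT10 8 rose and 26 fell under pemafibrate, and 8 rose and 26 fell under CMC, 49.3% each. Of all tested genes 41.7 and 42.6% were called, 21.2 and 22.5% higher and 20.5 and 20.2% lower. These shares were not tested against each other. The median changes with Ad-FAT10 were -0.30 and -0.29, against -0.02 and -0.01 over all tested genes. The interaction called 0 of the 69 by edgeR. Counts of single lists below stand beside the same shares of all tested genes. With the drug those were 12.9% higher and 12.5% lower in Ad-FAT10 livers, and 16.2 and 14.4% in Ad-CTRL livers. Many lists are short, and no list was tested as a set.

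Retinol transport held few measurable genes, 5 of 12, of which 0 rose and 3 fell with the drug in Ad-FAT10 livers and 1 rose and 3 fell in Ad-CTRL livers, while 2 fell with Ad-FAT10 under pemafibrate and 1 under CMC. Ttr, the transthyretin that binds RBP4 in plasma, fell with Ad-FAT10 beside Rbp4, by 0.71 ± 0.13 under pemafibrate and 0.77 ± 0.13 under CMC (edgeR adjusted p = 0.000325 and 0.000154). It also fell with the drug, by 0.47 ± 0.13 in Ad-FAT10 and 0.53 ± 0.13 in Ad-CTRL livers (adjusted p = 0.0112 and 0.00389). Stra6l, known in mice as a receptor through which liver takes up retinol from RBP4, fell with pemafibrate by 0.93 ± 0.12 and 0.88 ± 0.12 (adjusted p = 2.2e-05 and 2.5e-05) and passed neither vector test (0.04 and 0.08). Hepatocyte markers, a list that includes Ttr, fell with Ad-FAT10 in 11 of 15 cases under pemafibrate and in 8 of 15 under CMC, and with the drug in 10 of 15 with either vector. The part of hepatocyte markers in the Rbp4 and Ttr values was not tested.

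Genes that form or split retinyl and other lipid esters rose with the drug in 7 of 13 cases in Ad-FAT10 livers, with none falling, and in 8 of 13 in Ad-CTRL livers, with 2 falling. With Ad-FAT10 2 rose and 6 fell under either treatment. Pnpla2, the triglyceride lipase, rose by 1.33 ± 0.11 in Ad-FAT10 and 1.64 ± 0.11 in Ad-CTRL livers (edgeR adjusted p = 7.78e-08 and 4.13e-09). The carboxylesterase gene Ces1d rose with the drug in Ad-FAT10 livers by 1.42 ± 0.21 and fell with Ad-FAT10 under CMC by 1.40 ± 0.21 (adjusted p = 7.29e-05 and 5.87e-05). Lpl, lipoprotein lipase, rose with Ad-FAT10 by 1.14 ± 0.20 and 1.23 ± 0.20 under pemafibrate and CMC (adjusted p = 0.000205 and 0.000111).

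Retinol oxidation genes fell with Ad-FAT10 in 6 of 12 measured cases under pemafibrate and 8 of 12 under CMC, with 1 and 0 rising. With the drug 1 rose and 2 fell in Ad-FAT10 livers, and 1 rose and 3 fell in Ad-CTRL livers. Among 8 measured genes of retinal reduction, 2 rose with the drug in Ad-FAT10 and 1 in Ad-CTRL livers, with 0 falling. With Ad-FAT10 3 fell under either treatment, and 2 rose under pemafibrate and 1 under CMC. Dhrs4, a peroxisomal carbonyl reductase, rose with the drug by 1.27 ± 0.10 and 1.33 ± 0.10 in Ad-FAT10 and Ad-CTRL livers (edgeR adjusted p = 3.23e-08 and 1.25e-08), while Dhrs3 passed neither test. Of 7 retinal oxidation genes 1 rose and 2 fell with the drug with either vector, and with Ad-FAT10 1 rose under either treatment, 1 fell under pemafibrate and 2 fell under CMC. The fatty aldehyde dehydrogenase Aldh3a2 rose with the drug by 2.77 ± 0.18 and 2.19 ± 0.18 (adjusted p = 5.4e-09 and 5.15e-08). Aldh8a1, which oxidises 9-cis-retinal, fell with Ad-FAT10 by 0.70 ± 0.11 and 0.46 ± 0.11 under pemafibrate and CMC (adjusted p = 0.000108 and 0.00305). Aldh1a2 and Aldh1a3, the other retinal dehydrogenases of this family, passed none of the 4 tests.

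Clearance of retinoic acid and its glucuronides was represented by 7 measured genes, of which 3 fell and 0 rose with the drug with either vector. With Ad-FAT10 1 fell under pemafibrate and 3 under CMC, with 0 rising. Cyp26a1, the retinoic acid hydroxylase that is itself induced by retinoic acid, fell by 0.94 ± 0.30 in Ad-CTRL livers (edgeR adjusted p = 0.022) and had a change of -0.58 ± 0.26 in Ad-FAT10 livers (adjusted p = 0.121). It stood at 0.793 to 3.28 CPM over all libraries. Among 9 genes known to respond to retinoic acid, the drug raised 2 and lowered 0 in Ad-FAT10 livers and raised 2 and lowered 2 in Ad-CTRL livers, while with Ad-FAT10 1 rose and 3 fell under pemafibrate and 2 rose and 2 fell under CMC. Tgm2, tissue transglutaminase, rose with Ad-FAT10 by 1.20 ± 0.16 and 1.50 ± 0.16 under pemafibrate and CMC (adjusted p = 2.02e-05 and 2.24e-06), while Rarres2, the chemerin gene, fell by 0.49 ± 0.08 and 0.63 ± 0.08 (adjusted p = 0.000126 and 1.24e-05).

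Of the 9 receptors and cofactors, 3 rose and 2 fell with the drug with either vector, while with Ad-FAT10 0 rose and 4 fell under pemafibrate and 1 rose and 1 fell under CMC. With the drug Rara and Rxra fell, by 0.41 and 0.43 in Ad-FAT10 livers (edgeR adjusted p = 0.0172 and 0.0164) and by 0.43 and 0.34 in Ad-CTRL livers (adjusted p = 0.0117 and 0.0429). Other RXR genes rose with it. Rxrb rose by 0.25 ± 0.07 in Ad-FAT10 and 0.34 ± 0.07 in Ad-CTRL livers (adjusted p = 0.0127 and 0.00135). Rxrg rose by 0.73 ± 0.13 in Ad-FAT10 livers (adjusted p = 0.000355). Nrip1, a corepressor of retinoic acid receptors, rose by 0.38 ± 0.12 in Ad-FAT10 and 1.08 ± 0.13 in Ad-CTRL livers (adjusted p = 0.0296 and 4.12e-06), with an interaction of -0.70 ± 0.18 (adjusted p = 0.149). Among 4 measured carotenoid genes 1 rose and 2 fell with the drug with either vector. With Ad-FAT10 1 rose and 1 fell under pemafibrate, and 2 rose and 1 fell under CMC. Cd36, a scavenger receptor for fatty acids and carotenoids, rose with the drug by 2.53 ± 0.20 and 2.79 ± 0.20 in Ad-FAT10 and Ad-CTRL livers (adjusted p = 4.63e-08 and 1.17e-08). Bco1, which splits beta-carotene to retinal, rose with Ad-FAT10 by 0.91 ± 0.14 and 0.78 ± 0.13 under pemafibrate and CMC (adjusted p = 6.51e-05 and 0.00018), and Bco2, which cuts it off centre, fell by 0.45 ± 0.16 and 0.85 ± 0.15 (adjusted p = 0.0306 and 0.000322).

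**Figure D5:**
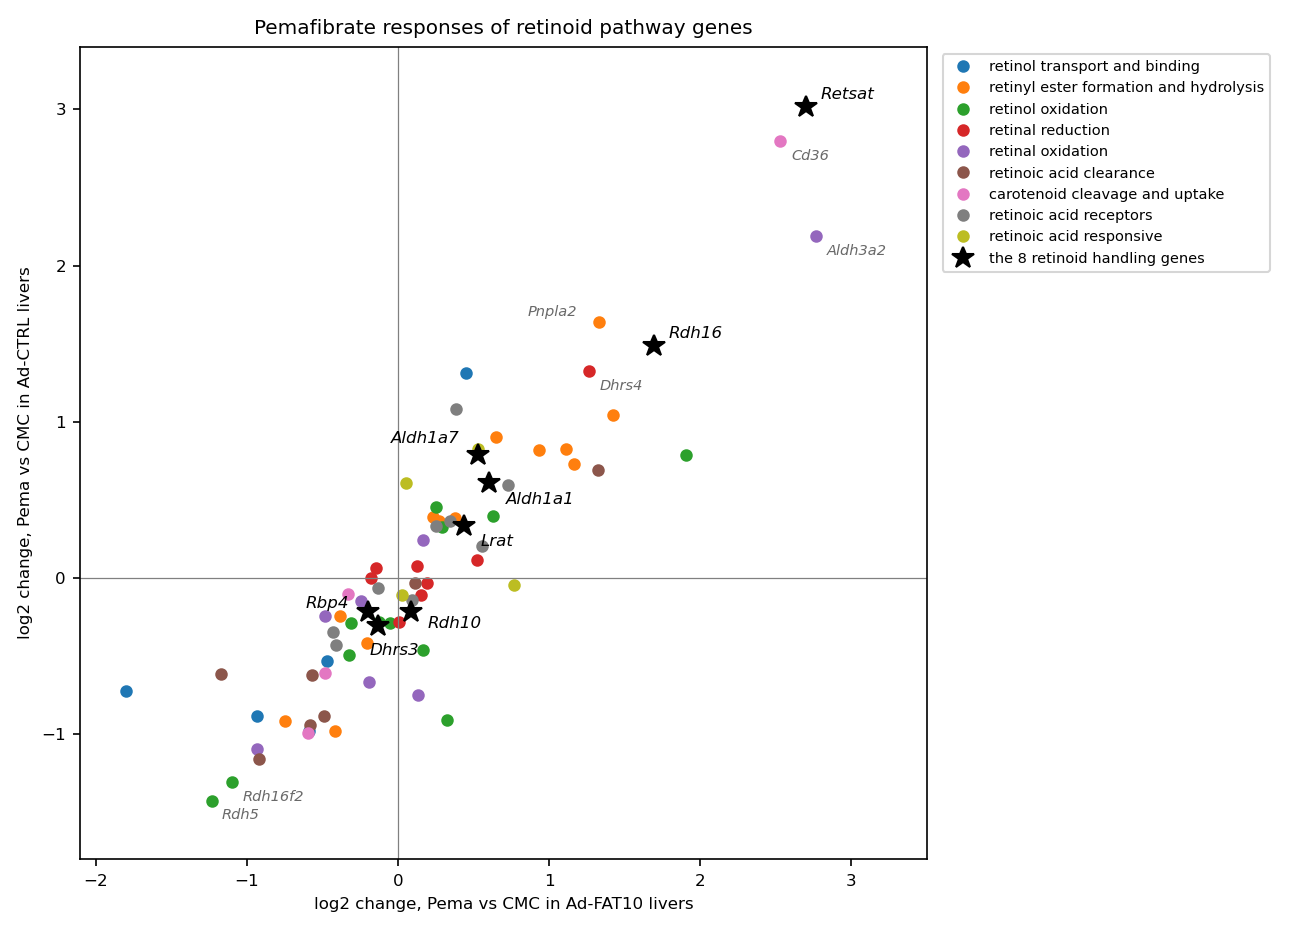
Log2 change with pemafibrate in Ad-FAT10 livers (horizontal) and in Ad-CTRL livers (vertical), comparisons that share no library, for the 8 genes (stars) and the other measured retinoid genes (dots, coloured by the first list that holds the gene). Retsat lies at 2.70 and 3.01, beside Cd36 at 2.53 and 2.79, and Rdh5 and Rdh16f2 lie at the lower left.

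For the 7 genes whose SD over the 16 libraries was at least 0.3 log2, the genes most like each in pattern were sought, by the root mean square difference in log2 CPM after each gene's mean was subtracted. Nearest to Retsat were Rab30, a small GTPase gene (0.24), and Acaa1b, a peroxisomal thiolase gene (0.29), where the median over all genes was 1.56. Rbp4 was nearest to Rdh7 (0.09) and Hibadh (0.11), with a median of 0.55. Rdh16 was nearest to P2ry1 (0.28) and Ces1d (0.30), with a median of 1.13. Nearest to Aldh1a7 were Psmb5 and Psmc4, genes of proteasome subunits (0.17 each, median 0.47), whose changes with the drug were 0.62 and 0.47 in Ad-FAT10 and 0.63 and 0.66 in Ad-CTRL livers. For Aldh1a1 they were Mtmr4 (0.19) and Mterf4 (0.20), for Dhrs3 Dalrd3 (0.12) and Akr7a5 (0.13), and for Lrat Rasgrp3 (0.19) and Cd55 (0.21), with medians of 0.46, 0.46 and 0.53. These are descriptions over 16 libraries that share the 4 groups.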

How the data were processed

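The 16 poly(A) RNA libraries of liver, 4 per group, were made with a strand-marking dUTP method and sequenced on DNBSEQ, per the labels' protocols. The authors deposited raw counts per gene for each library. The submitters' processing notes name the build GRCm39, STAR 2.7.6 and DESeq2 2.11.40.6 and 1.36.0. Which counter, annotation release and strand option were used is not given in the sources used here.

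The deposited counts were tested with edgeR 4.0.16 (R 4.3.3), using the quasi-likelihood test with 1 mean per group over all 16 libraries, TMM scaling and edgeR's filter on low counts, with Benjamini-Hochberg adjustment over 14770 genes. A printed SE was computed from the log2 change and the F statistic of that test and so restates it. Differences within a library used exact permutation tests on log2 CPM with a prior count of 2. Symbols and exon lengths came from GENCODE M21 (GRCm38) by Ensembl ID, with 52083 of 55416 IDs matched. The coding sequences compared came from the same annotation, as the longest coding sequence of each gene. None of the printed coordinates were taken from it. Genes with overlapping neighbours or near copies may share counts.

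The 8 genes and all lists of pathway genes and cell markers were chosen with earlier results of these data known. Named pathway genes were taken from the 2 called members with the smallest p in each list and comparison, and likeness named the 2 nearest genes. Rdh9, Rara, Rxra, Aldh1a2 and Aldh1a3 fell outside that rule and were chosen after their values were seen. No 2 replicate libraries held identical counts. Since the labels do not tie each library to its own mouse, p-values measure only the spread between these samples, which may be technical. The edgeR test between vectors under CMC was run on simulated counts, with a small part of the genes changed, evenly up and down. In the data 42.6% of tested genes were called there, so the simulation does not cover scaling when many genes differ. The other comparisons and the permutation tests were not simulated. Alternatives were other scalings, filters, DESeq2 1.42.0, a replicate block, fits of only the groups compared, and leaving out each library.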

Additional observations from a re-analysis of the deposited data

Results flagged for a closer look

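In 44 groups of 4 libraries, 4 held a library far from the other 3, where chance gives about 1 in 20 groups. Dhrs3 stood at 7.48 log2 CPM in Ad-CTRL CMC replicate 4, with the nearest library at 6.88. In the same library Dhrs3 minus Rdh10 was 2.57, with the nearest at 2.06. Rdh10 stood at 4.42 log2 CPM in Ad-FAT10 CMC replicate 4, with the nearest at 4.52. Aldh1a1 stood at 10.34 log2 CPM in Ad-FAT10 CMC replicate 2, with the nearest at 10.27.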

How the results depend on the processing

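The rises of Retsat and Rdh16 with pemafibrate and the falls of Retsat, Rbp4 and Rdh16 with Ad-FAT10 kept their direction and call under all alternatives run. Scaling by library totals alone shifted the median of all genes between vectors by 0.34 under pemafibrate and 0.28 under CMC, and made 89.7 and 85.7% of calls higher in Ad-FAT10 livers, against 50.9 and 52.7% with TMM. It gave 3 of the 8 genes lower with the drug in Ad-CTRL livers, where 2730 of 14770 tested genes were lower. With Ad-FAT10 it gave 2 of the 8 higher under pemafibrate and 1 under CMC, where 7204 and 6365 of the 14770 were higher. Its reversed values were 0.294 for Rdh10 and 0.296 for Aldh1a1 under pemafibrate and 0.235 for Aldh1a1 under CMC. Of the calls with the drug in Ad-CTRL livers it made 39.5% higher, upper quartile scaling 41.1% and TMM 52.8%. Upper quartile scaling gave 2 of the 8 lower with the drug in Ad-CTRL livers, where 2746 of 14770 tested genes were lower. No filter on low counts gave 0 of the 8, with 2139 of 29478 tested genes lower. The interaction called 23 genes with all libraries, 93 without the filter and 116 by DESeq2. The Aldh1a1 interaction, near 0, changed sign to 0.012 (DESeq2 size factors), 0.033 (upper quartile), 0.061 (library totals), 0.016 (no filter), 0.004 (at least 1 CPM) and 0.010 (DESeq2). The Aldh1a7 difference between vectors under pemafibrate became -0.007 with DESeq2 size factors and -0.002 with DESeq2. The causes of these shifts were not tested.

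Leaving out 1 library at a time gave 0 to 1 of the 8 genes lower with the drug in Ad-CTRL livers, against 1724 of 15012 to 2297 of 14982 tested genes. It gave 11 to 36 genes in the interaction. Between vectors Aldh1a1 ran from -0.194 to 0.128 under pemafibrate and -0.164 to 0.017 under CMC, and Aldh1a7 from -0.083 to 0.116 under pemafibrate. Interactions ran from -0.056 to 0.08 for Rbp4, -0.209 to 0.302 for Lrat, -0.004 to 0.252 for Dhrs3 and -0.138 to 0.183 for Aldh1a1. Lrat minus the stellate mean ran from 0.329 to 0.693 for the drug in Ad-CTRL livers and 0.158 to 0.522 between vectors under CMC. Dhrs3 minus Rdh10 ran from -0.129 to 0.066 for the drug in Ad-CTRL livers and -0.395 to -0.2 between vectors under CMC. Aldh1a7 minus Aldh1a1 ran from 0.237 to 0.361 between vectors under CMC, -0.01 to 0.168 under pemafibrate, and -0.144 to 0.034 for the drug in Ad-FAT10 livers.

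The labels do not say that the replicate numbers pair the samples. Same-numbered libraries had correlations of -0.172 to 0.172 and others -0.159 to 0.195, and 4 of 16 were closest to their own number. These values show no pairing by number, but with 4 libraries per group they cannot exclude one. With the number as a replicate block 3603 and 4369 genes were called for the drug in Ad-FAT10 and Ad-CTRL livers, 5998 and 6074 for Ad-FAT10 under pemafibrate and CMC, and 16 for the interaction. The block left 0 of the 8 lower with the drug in Ad-CTRL livers (Rdh10 -0.216, edgeR adjusted p = 0.0522), where 2049 of 14770 tested genes were lower. For Lrat between vectors under CMC it gave -0.587 (adjusted p = 0.0716).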

Other observations

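Other cell marker lists also held called genes, and their part in the values of the 8 genes was not tested. Of all tested genes 21.2% were higher and 20.5% lower with Ad-FAT10 under pemafibrate, and 22.5 and 20.2% under CMC. With the drug 12.9% were higher and 12.5% lower in Ad-FAT10 livers, and 16.2 and 14.4% in Ad-CTRL livers. No list was tested as a set, and counts near these shares are no result about a cell type. Of 9 measured neutrophil markers, 9 fell with pemafibrate in Ad-FAT10 livers and 0 changed in Ad-CTRL livers, while 5 rose with Ad-FAT10 under pemafibrate and 9 under CMC. Their summed level was 24.3 ± 4.68 CPM in Ad-FAT10 Pema, 86.8 ± 54.9 in Ad-FAT10 CMC, 9.61 ± 1.96 in Ad-CTRL Pema and 14.5 ± 4.86 CPM in Ad-CTRL CMC livers (SD, n = 4). Of 12 sinusoidal endothelial markers, 8 fell with Ad-FAT10 under either treatment and 0 changed with the drug. Of 9 measured markers of activated stellate cells, 6 rose with Ad-FAT10 under pemafibrate, and 2 rose and 1 fell under CMC. With the drug 2 rose in Ad-FAT10 livers and 0 changed in Ad-CTRL livers.

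Of 12 periportal hepatocyte markers, 3 rose and 5 fell with Ad-FAT10 under pemafibrate and 3 rose and 6 fell under CMC. With the drug 5 fell in Ad-FAT10 livers, and 1 rose and 7 fell in Ad-CTRL livers. Of 12 pericentral markers, 5 fell with the drug in Ad-FAT10 livers, and 1 rose and 3 fell in Ad-CTRL livers. Of 11 Kupffer cell markers, 5 rose and 5 fell with Ad-FAT10 under pemafibrate and 3 rose and 4 fell under CMC, with 0 and 1 falling with the drug in Ad-FAT10 and Ad-CTRL livers. Of 9 T and B cell markers, 4 rose and 3 fell with Ad-FAT10 under pemafibrate and 4 rose and 4 fell under CMC, and 1 fell with the drug with either vector. Of 6 measured cholangiocyte markers, 1 fell with the drug with either vector, 0 changed with Ad-FAT10 under pemafibrate and 1 rose under CMC.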
